A study of Mus musculus with 9 samples.

Results

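The 5 lysosomal cathepsins B, D, K, L and S, all proteases, were followed through 3 treatments of cultured mouse macrophages. They are cathepsin B (Ctsb, UniGene cluster 'Mm.236553'), cathepsin D (Ctsd, 'Mm.231395'), cathepsin K (Ctsk, 'Mm.272085'), cathepsin L (Ctsl, 'Mm.930') and cathepsin S (Ctss, 'Mm.3619'). The members were chosen by cluster number, and all 5 were found among the 17810 clusters measured. The table holds cluster numbers without gene names, and the gene table used beside it lists no cluster numbers. The cathepsin names are those that the member list gives for these numbers, and that pairing was not checked against an annotation here. Cells from the bone marrow of C57BL/6 mice were cultured in 30 ng/ml M-CSF, the growth factor that drives them to become macrophages. From day 4 they were stimulated for 3 days. The combination group (cmB16F1+dexa+IL4) received medium conditioned by B16F1 mouse melanoma cells together with 5e-07 M dexamethasone, a synthetic glucocorticoid, and 10 ng/ml interleukin 4 (IL-4). The dexa+IL4 group received dexamethasone and IL-4 at those doses without conditioned medium, and the cmB16F1 group received conditioned medium alone. Each group had 3 arrays, all groups carried M-CSF, and no group of unstimulated cells was used here, so each comparison is between stimulated cells. The labels do not say whether the arrays of a group came from separate mice or cultures, so the p-values measure the spread between these arrays only.

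Cathepsins are proteases of the acidic endosomes and lysosomes, where macrophages break down engulfed and recycled protein. Cathepsins B, K, L and S are cysteine proteases of the papain type, whereas cathepsin D is an aspartic protease. They are made as inactive precursors, sorted to the lysosome and activated there by cleavage, and macrophages can also secrete them into the tissue matrix. IL-4 is known to raise cathepsin activity in tumour-associated macrophages of mice. The arrays measured RNA, neither protein nor protease activity, and in such bulk samples fewer cells of a type and less RNA per cell cannot be told apart.

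In RefSeq's annotation of mouse assembly GRCm38.p6, Ctsb lies on chromosome 14 (63122462 to 63145923), Ctsd on chromosome 7 (142375910 to 142387827) and Ctsl on chromosome 13 (64361890 to 64370772). Ctsk (95499210 to 95509387) and Ctss (95526786 to 95556405) lie near each other on chromosome 3. RefSeq promoter sequences of assembly GRCm38.p6, which cover 250 bases before to 50 after a start site, matched 4 of the 5 genes by symbol: Ctsd, Ctsk, Ctsl and Ctss. The Ctsd and Ctsk windows are shown because they belong to the cathepsin with the most calls below and to the one with the widest range of group means. In all, 3 motifs were searched on both strands. CACGTG is the core of the element bound by the lysosomal regulator TFEB, TTCNNNNGAA is the form bound by STAT6, which signals for IL-4, and AGAACA, whose reverse complement is TGTTCT, is the hexamer that each arm of the glucocorticoid receptor element resembles. The Ctsd window, chr7:142387778-142388077 on the minus strand, holds CACGTG at bases -245 to -240 and -98 to -93 from the start site. The Ctsk window, chr3:95498960-95499259 on the plus strand, holds TGTTCT at bases -206 to -201. Capitals mark these matches, read 5′ to 3′ along each gene's strand.
Ctsd: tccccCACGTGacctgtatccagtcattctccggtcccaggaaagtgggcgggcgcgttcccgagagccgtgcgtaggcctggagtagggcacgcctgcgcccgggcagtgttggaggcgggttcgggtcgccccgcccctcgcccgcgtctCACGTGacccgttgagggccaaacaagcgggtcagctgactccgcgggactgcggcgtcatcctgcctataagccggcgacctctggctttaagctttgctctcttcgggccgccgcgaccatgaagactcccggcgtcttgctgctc
Ctsk: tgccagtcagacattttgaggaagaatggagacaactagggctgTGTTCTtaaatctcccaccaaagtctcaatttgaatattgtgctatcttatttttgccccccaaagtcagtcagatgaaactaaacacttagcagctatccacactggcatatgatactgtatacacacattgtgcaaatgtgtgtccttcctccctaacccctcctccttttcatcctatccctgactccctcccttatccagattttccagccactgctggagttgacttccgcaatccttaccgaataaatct
The Ctsl window, chr13:64370471-64370770 on the minus strand, held 1 CACGTG. This window lies wholly within the Ctsl gene span given above, so its match is not upstream of that span. The Ctss window held 2 copies of TGTTCT, and TTCNNNNGAA was in none of the 4 windows. Of all 32851 promoters of that length in the table, 7.2% held CACGTG, 7.0% TTCNNNNGAA and 19.0% AGAACA or TGTTCT. A match is a description of letters and shows no binding.

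Probe-set values were deposited on a log2 scale, so a difference of 1 is a 2-fold change. The 9 arrays had medians from 7.20 to 7.25, the bacterial poly-A controls, which mark the low end of the scale, reached 7.00, and the highest value of any array was 14.2. All 45 cathepsin values lay above those controls. On each array the clusters were ranked from the brightest down, which gives a place on the scale and no comparison of amounts between genes. Ctss stood at rank 1 to 4, Ctsd at 7 to 45, Ctsb at 15 to 49, Ctsl at 130 to 255 and Ctsk at 441 to 2133. Differences were tested with limma on all 9 arrays, with p-values adjusted by Benjamini-Hochberg over 17829 features, and were called at an adjusted p under 0.05.

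Ctsb and Ctsd were highest with dexa+IL4 alone, and both were lower when conditioned medium was added to dexamethasone and IL-4. Both were also lower in cmB16F1, a group that had conditioned medium but neither dexamethasone nor IL-4. Ctsk had its highest mean in dexa+IL4 too, but its spread was wide in both groups with conditioned medium. Ctsl and Ctss passed the test in none of the 3 comparisons.

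**Figure D1:**
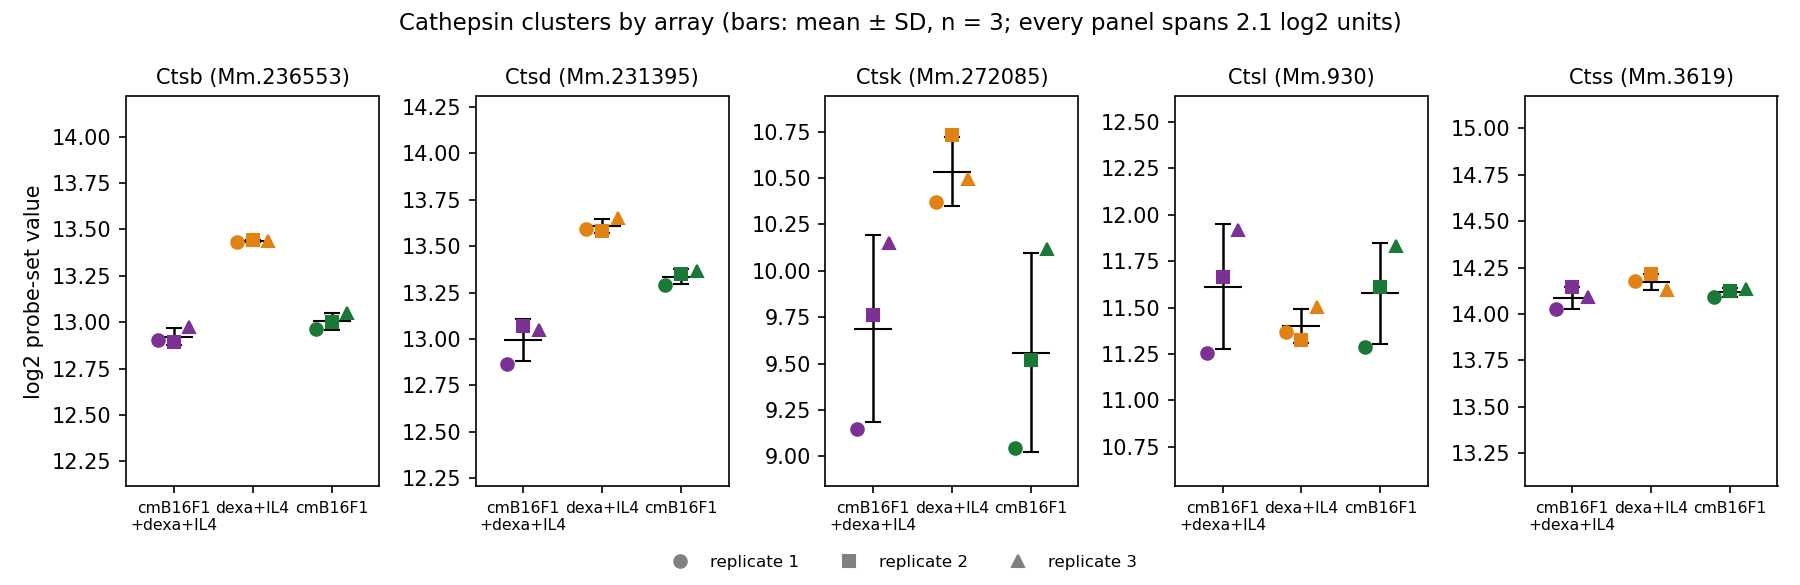
Log2 probe-set values of the 5 cathepsin clusters on each of the 9 arrays, by group, with black bars for the mean ± SD of 3 arrays and marker shapes for the replicate number. Every panel spans the same number of log2 units, and dexa+IL4 stands above both other groups without overlap for Ctsb, Ctsd and Ctsk, while the groups overlap for Ctsl and Ctss.

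Cathepsin D, the aspartic protease and a major endopeptidase of the lysosome, was the one member that passed the test in all 3 comparisons. Its log2 values were 12.86, 13.07 and 13.05 in the combination, 13.59, 13.58 and 13.65 in dexa+IL4, and 13.29, 13.35 and 13.36 in cmB16F1. The 3 groups did not overlap: every dexa+IL4 array was above every cmB16F1 array, and every combination array was below both. The means were 12.99 ± 0.11, 13.61 ± 0.04 and 13.34 ± 0.04 (SD, n = 3 each) in the combination, dexa+IL4 and cmB16F1. Ctsd was 1.53-fold lower in the combination than in dexa+IL4, a log2 difference of -0.61 (95% confidence interval -0.75 to -0.48, limma adjusted p = 1.293e-04). It was 1.27-fold lower in the combination than in cmB16F1, by -0.34 with an interval from -0.47 to -0.21 (limma adjusted p = 0.0032). Ctsd was thus below both single treatments when they were joined. Between those treatments it was 1.21-fold higher in dexa+IL4, by 0.27 with an interval from 0.14 to 0.40 (limma adjusted p = 0.007315). That last call was lost with scaling of arrays to the hybridization controls (difference 0.32, limma adjusted p = 0.05519).

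Cathepsin B, a cysteine protease that can also trim dipeptides from the end of a protein, had the smallest spread among the dexa+IL4 arrays. Its log2 values were 12.90, 12.89 and 12.97 in the combination, 13.43, 13.44 and 13.44 in dexa+IL4, and 12.96, 13.00 and 13.05 in cmB16F1. The dexa+IL4 arrays stood apart from the other 6, while the combination and cmB16F1 arrays overlapped. Ctsb was 1.43-fold lower in the combination, with a mean of 12.92 ± 0.05, than in dexa+IL4, with 13.44 ± 0.01 (SD, n = 3 each). This log2 difference of -0.51, with an interval from -0.61 to -0.42, had an adjusted p of 7.259e-05 in limma. Between the single treatments Ctsb was 1.35-fold higher in dexa+IL4 cells than in cmB16F1 cells, whose mean was 13.00 ± 0.04, a difference of 0.43 with an interval from 0.33 to 0.53 (limma adjusted p = 7.162e-05). Against cmB16F1 the combination differed by -0.08, with an interval from -0.18 to 0.02 (limma adjusted p = 0.289), so a change of the size seen against dexa+IL4 lies outside this interval.

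Cathepsin K, a collagen-degrading cysteine protease best known from osteoclasts, had the widest range of group means and the widest spread within groups. In the combination its log2 values were 9.15, 9.76 and 10.15, in dexa+IL4 10.37, 10.73 and 10.50, and in cmB16F1 9.04, 9.52 and 10.12. The lowest dexa+IL4 array was above the highest array of either other group, and the combination and cmB16F1 arrays spread over the same range. The SD was 0.51 in the combination, 0.19 in dexa+IL4 and 0.54 in cmB16F1 (n = 3 each). The Ctsk mean was 1.96-fold higher in dexa+IL4 cells than in cmB16F1 cells, a log2 difference of 0.97 with an interval from 0.34 to 1.61 (limma adjusted p = 0.031). That call was lost without any 1 of the dexa+IL4 replicates 1, 2 or 3 or cmB16F1 replicates 1 or 2, where the difference was 1.06, 0.87, 0.99, 0.72 and 0.95. The call held in 13 of 19 alternatives, with limma adjusted p up to 0.102. The lowest, 3.042e-10, came only with scaling to the hybridization controls, where the standard error was 0.149 against 0.283 as deposited. The next lowest was 0.002326, from limma with a block for the replicate number. Against dexa+IL4 the combination differed by -0.84, with an interval from -1.48 to -0.21, and missed the threshold (limma adjusted p = 0.06756). With a replicate block over all 3 groups the same difference passed, with an interval from -1.22 to -0.47 (limma adjusted p = 0.006502), although the deviations of equal numbers did not go together throughout between the combination and dexa+IL4. It passed in 6 of 19 alternatives, with limma adjusted p up to 0.192. The lowest, 1.050e-11, again came only with scaling to the hybridization controls, with the same fall in standard error. The next lowest was that of the replicate block. With that scaling the p-values did not follow the standard error alone. For Ctsb in this comparison the standard error rose from 0.0439 to 0.118 and the difference went from -0.51 to -0.77. Its limma adjusted p nevertheless fell from 7.259e-05 to 3.134e-09. The Ctsk difference was -0.58 without combination replicate 1 and -1.08 without combination replicate 3. The difference between the combination and cmB16F1 was 0.13 with an interval from -0.50 to 0.76 (limma adjusted p = 0.8382). It was -0.08 with scaling to the hybridization controls. That setting shifted the median cluster by -0.20 in this comparison, and Ctsk was 0.12 relative to that median.

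Cathepsin L, a cysteine endopeptidase that also takes part in processing other lysosomal proteases, passed no test. Its log2 values were 11.26, 11.67 and 11.92 in the combination, 11.37, 11.33 and 11.50 in dexa+IL4, and 11.29, 11.61 and 11.83 in cmB16F1. In each group with conditioned medium, the lowest array was below all dexa+IL4 arrays and the other 2 were above them. The differences were 0.21 for the combination against dexa+IL4 (interval -0.16 to 0.59), 0.04 for the combination against cmB16F1 (-0.34 to 0.41) and -0.18 for dexa+IL4 against cmB16F1 (-0.55 to 0.20). The limma adjusted p-values were 0.451, 0.9333 and 0.4968. With scaling to the hybridization controls the first was -0.04 and the second -0.18. That setting shifted the median cluster by -0.26 and -0.20 in these comparisons. Relative to that median, Ctsl was 0.22 and 0.02. The first interval holds a rise of up to 1.5-fold and the second one of up to 1.33-fold. Leaving out 1 array gave 0.06 to 0.39 against dexa+IL4, and -0.32 to -0.05 for dexa+IL4 against cmB16F1.

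Cathepsin S, which cleaves the invariant chain of MHC class II in antigen-presenting cells, was at the top of the scale on all arrays. Its log2 values were 14.03, 14.15 and 14.09 in the combination, 14.18, 14.22 and 14.13 in dexa+IL4, and 14.09, 14.13 and 14.14 in cmB16F1. Ctss was the brightest cluster on all 3 dexa+IL4 arrays and ranked 2 to 4 on the others. The groups overlapped in all 3 comparisons, and the differences were -0.09 for the combination against dexa+IL4, -0.03 for the combination against cmB16F1 and 0.06 for dexa+IL4 against cmB16F1. The limma adjusted p-values were 0.2149, 0.7459 and 0.3907. Whether a probe set this bright still follows the amount of RNA was not tested. With scaling to the hybridization controls Ctss passed against dexa+IL4 (difference -0.34, limma adjusted p = 0.009781), a setting that shifted the median cluster by -0.26, so that Ctss was -0.08 relative to that median.

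**Figure D2:**
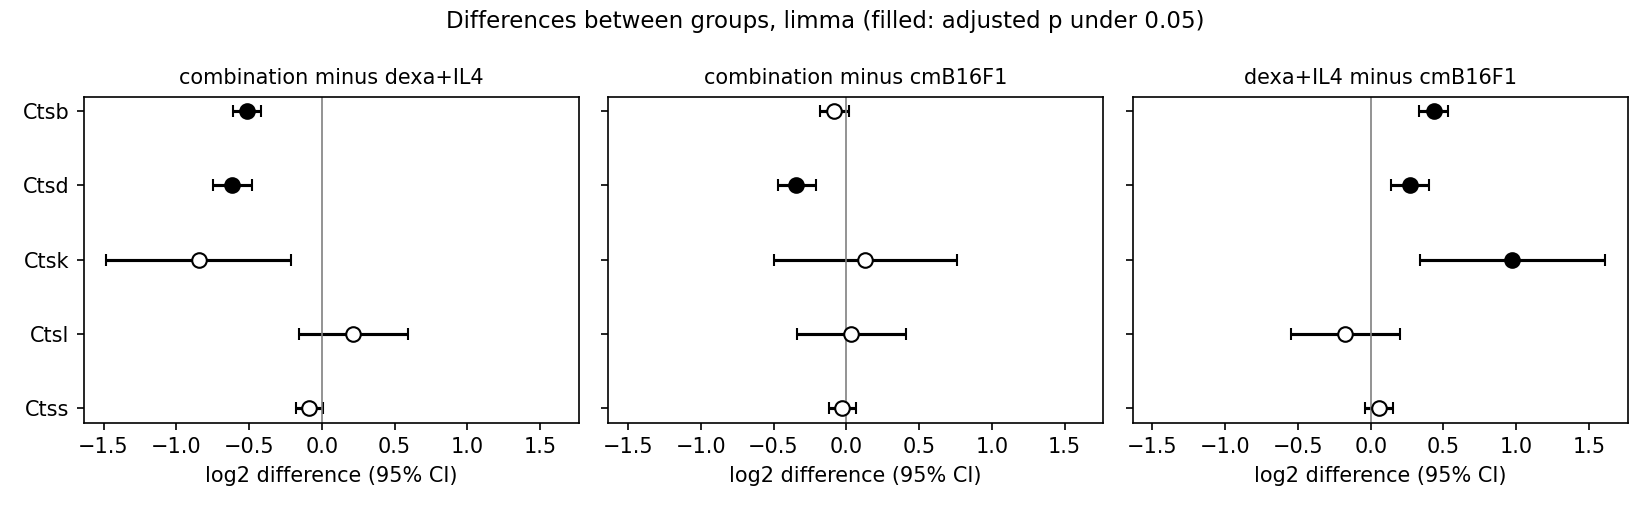
Log2 differences between group means for the 5 cathepsins in each of the 3 comparisons, with 95% confidence intervals from limma; filled points had an adjusted p under 0.05. Ctsd is filled in all 3 panels, Ctsb in the outer 2 and Ctsk in dexa+IL4 minus cmB16F1, where it is the point farthest right, at 0.97.

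With conditioned medium beside dexamethasone and IL-4, 2 of the 5 cathepsins, Ctsb and Ctsd, were called lower than in dexa+IL4 and none was called higher. Of all clusters, 17.9% were called in this comparison and 9% were called lower. The groups did not overlap for Ctsb, Ctsd and Ctsk, against 36.1% of all clusters. The shares without overlap, here and below, were not taken among clusters as bright. Among the 29 clusters with a mean of at least 13, which hold Ctsb, Ctsd and Ctss, 44.8% were called in either direction. That share was 51.5% from 11 to 12 and 35.6% from 9 to 10. So 2 of 5 called is near the share of clusters as bright that were called in either direction. At these levels, here and below, the shares were not split by direction. The median difference of the 5 members was -0.51, against -0.003 over all clusters. Without regard to direction, the median size was 0.236 from a mean of 13 upward, 0.24 from 11 to 12 and 0.17 from 9 to 10. With dexamethasone and IL-4 beside conditioned medium, 1 of the 5, Ctsd, was called lower than in cmB16F1. Here 14.1% of all clusters were called and 7.57% were called lower. At the levels of the members, 41.4% were called in either direction from a mean of 13 upward, 40.7% from 11 to 12 and 30% from 9 to 10. So 1 of 5 called is not above the share of clusters as bright that were called in either direction. Ctsd was also the one member whose groups did not overlap, against 28.5% of all clusters, and the median difference was -0.03 for the members and 0.01 for all clusters. Between the single treatments 3 of the 5, Ctsb, Ctsd and Ctsk, were higher in dexa+IL4. Of all clusters 25% were called in this comparison and 12.8% were called higher in dexa+IL4. At the levels of the members the share called in either direction was larger than that 25%. It was 58.6% from a mean of 13 upward, 52.9% from 11 to 12, where Ctsl lies, and 45.8% from 9 to 10, where Ctsk lies. So 3 of 5 called is near the share of clusters as bright that were called in either direction. Ctsb, Ctsd and Ctsk did not overlap between groups, against 44.3% of all clusters. The median difference was 0.27 for the members and 0.02 for all clusters. Without regard to direction, the median size at those 3 levels was 0.22, 0.238 and 0.198. The 3 comparisons share arrays in pairs. For Ctsb and Ctsd, the calls between dexa+IL4 and the combination and between dexa+IL4 and cmB16F1 both rest on the dexa+IL4 arrays. The Ctsd difference between the combination and cmB16F1 takes no mean from those arrays.

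Whether the members responded unequally was tested on the difference between each pair of cathepsins within an array, with exact two-sided permutation tests over arrays. This gave 30 tests, 10 pairs in each of 3 comparisons. With 3 arrays a group they cannot give a p under 0.1, and their lowest Benjamini-Hochberg adjusted p was 0.188. None could pass 0.05, so the tests cannot decide the question. Many pairs besides those named below also stood at an exact permutation p of 0.1 without overlap. The tests took the arrays of both groups as exchangeable and made no use of the replicate numbers, although equal numbers deviated together in the combination and cmB16F1. In the combination against cmB16F1, the change of Ctsb lay 0.26 above that of Ctsd on the log2 scale, without overlap of arrays (exact permutation p = 0.1). In the combination against dexa+IL4, the same pair differed by 0.10 with overlapping arrays (exact permutation p = 0.3). Ctsd and Ctsl moved apart by -0.83 in the combination against dexa+IL4 and by 0.45 in dexa+IL4 against cmB16F1, without overlap in either (exact permutation p = 0.1 for each). Across the 9 arrays, each centred on the cluster's own mean, Ctsb and Ctsd had the most similar profiles of the 10 pairs, with a root mean square difference of 0.12 on the log2 scale, and Ctsk and Ctsl the least similar, with 0.555. This likeness is a description, and its points share arrays and groups.

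The spread of Ctsk and Ctsl within groups went with the replicate number in the groups with conditioned medium. Replicate 1 was lowest and replicate 3 highest for both genes, in the combination and in cmB16F1 alike. The order in dexa+IL4 was the same in part. There Ctsk was lowest in replicate 1 and highest in replicate 2, and Ctsl was lowest in replicate 2 and highest in replicate 3. Taken within equal numbers, the combination minus cmB16F1 difference of Ctsk was 0.11, 0.24 and 0.04, and that of Ctsl was -0.03, 0.05 and 0.09. These differences are much smaller than the SD of 0.51 and 0.54 of Ctsk within those groups. The combination minus dexa+IL4 difference of Ctsk was -1.22, -0.97 and -0.34 for replicates 1, 2 and 3, and the dexa+IL4 minus cmB16F1 difference was 1.32, 1.22 and 0.38. The size of the Ctsk difference therefore varied widely between replicate numbers, with 1 direction in all of them. For Ctsb the dexa+IL4 minus cmB16F1 difference ran from 0.39 to 0.47, and for Ctsd the combination minus dexa+IL4 difference ran from -0.73 to -0.51. A control set for the 3′ end of 18S ribosomal RNA was likewise lowest in replicate 1 of both groups with conditioned medium. It was 9.39, 9.98 and 10.45 in the combination, 9.17, 9.17 and 9.29 in dexa+IL4 and 9.24, 10.58 and 10.08 in cmB16F1. The 3′ minus 5′ difference of Gapdh, a sign of RNA quality, was 0.24, 0.59 and 0.52 in the combination, 0.26, 0.26 and 0.40 in dexa+IL4 and 0.19, 0.57 and 0.50 in cmB16F1. The part of either in the spread of Ctsk and Ctsl was not tested.

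**Figure D3:**
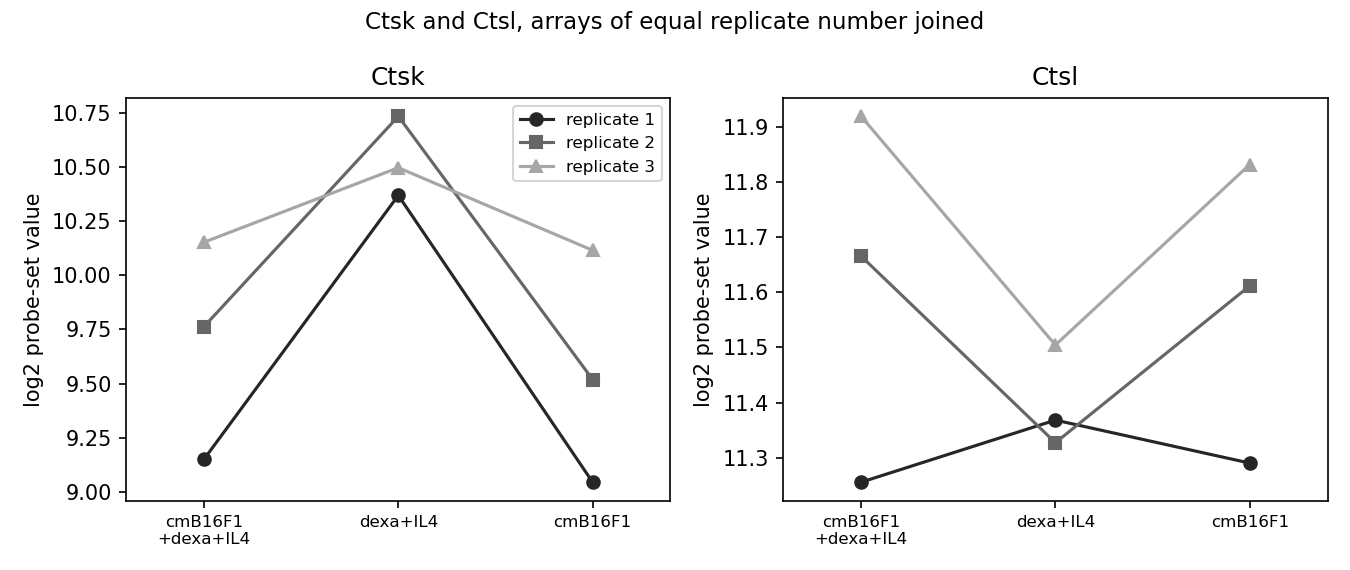
Log2 probe-set values of Ctsk (left) and Ctsl (right) in the 3 groups, with lines that join arrays of the same replicate number, which the labels do not say share a culture or mouse. The lines keep their order in the combination and in cmB16F1, with replicate 1 lowest and replicate 3 highest, and draw together in dexa+IL4.

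The 2 clusters whose 9-array profile was most like that of Ctsk, the member with the widest range of group means, were sought among 10763 clusters with a mean above the bacterial controls. They were Mm.261676, at a root mean square difference of 0.162 from the Ctsk profile, and Mm.3020, at 0.181. Cluster Mm.261676 had means of 10.05 ± 0.28 in the combination, 10.85 ± 0.10 in dexa+IL4 and 9.90 ± 0.36 in cmB16F1 (SD, n = 3 each). Cluster Mm.3020 had means of 8.63 ± 0.42, 9.62 ± 0.17 and 8.58 ± 0.38 in the same groups. Both were chosen for this likeness, and the files give neither a gene name.

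The place of the members near the top of the scale was set beside the size of change seen there. Among the 29 clusters with a mean of at least 13, the largest difference between the combination and dexa+IL4 was 0.614, the value of Ctsd itself. Among 80 clusters from 12 to 13 it reached 2.01, and among 1322 clusters from 9 to 10, which hold Ctsk, it reached 4.16. The 95th percentile of the size was 0.525 from 13 upward and 1.08 from 12 to 13. In dexa+IL4 against cmB16F1 the largest size was 0.873 from 13 upward and 6.00 from 12 to 13. The brightest clusters thus held none of the large differences seen further down. The classes were cut on the mean over all 9 arrays, with a top value of 14.2. A cluster lower in 1 group has a lower mean and so can fall to a class below. How far this limits the sizes from 13 upward was not tested. Few clusters lie at the top, and whether the scale makes their differences, those of Ctsb, Ctsd and Ctss among them, too small was not tested. The ranks restate the array values and are no separate evidence. Ctsb ranked 41 to 49 in the combination, 15 to 17 in dexa+IL4 and 37 to 42 in cmB16F1, and Ctsd ranked 36 to 45, 7 to 8 and 16 to 18 in the same groups. As within-array percentiles, the combination minus dexa+IL4 differences of -0.16 for Ctsb and -0.18 for Ctsd percentile points did not pass (limma adjusted p = 0.4302 and 0.3682).

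**Figure D4:**
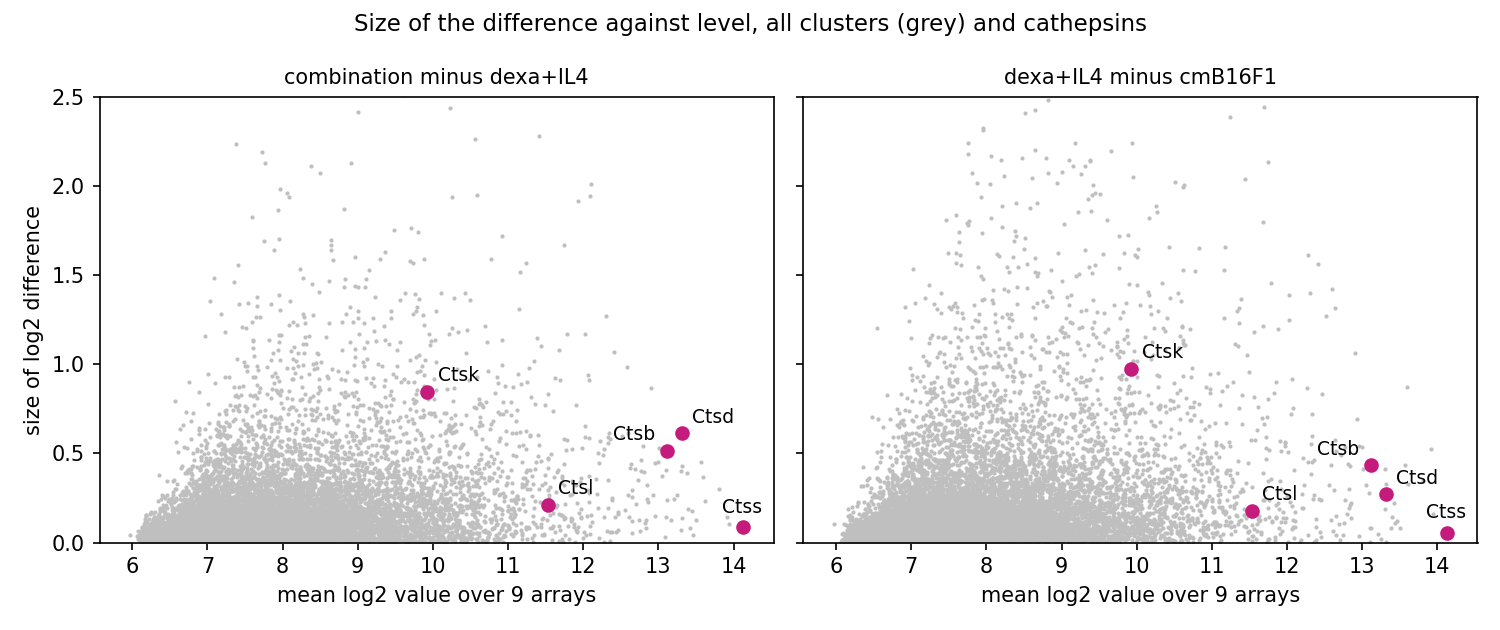
Size of the log2 difference against the mean log2 value over all 9 arrays, for all clusters (grey) and the 5 cathepsins (coloured), in the combination against dexa+IL4 (left) and dexa+IL4 against cmB16F1 (right). Clusters with a size over 2.5, 12 on the left and 39 on the right, are not drawn; from a mean of 13 upward, where Ctsb, Ctsd and Ctss lie, no cluster differs by more than 0.614 (left) or 0.873 (right).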

How the data were processed

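The deposited table holds log2 values of probe sets from 1-colour Affymetrix arrays, 1 array a sample. The authors had already normalized them between arrays, as the near-equal medians show. How the background was corrected and probes were summarised, and which normalization was used, is not given in the sources used here. A log2 scale was inferred from a range of 5.86 to 14.2. Where a cluster had a plus and a minus set (57 clusters), the set with the higher mean was used. Each cathepsin had 1 set. Groups were compared with limma 3.58.1 in R 4.3.3 (lmFit, then eBayes with trend, group as the only term, 6 residual degrees of freedom). Benjamini-Hochberg adjustment ran over 17829 features, which are the clusters and 19 mouse control sets. No filter on low values was applied. The number of arrays limits the precision. The fit was tested on simulated data. All 5 members were named, with the 2 clusters most like the member of widest range. Lists of other lysosomal genes, inhibitors and cell-type markers were not tested, since no table pairs cluster numbers with names, so the macrophage label was not checked. The members and lists were chosen with earlier results of these data known.

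Deviations from the group means, correlated across clusters, gave 0.617, 0.565 and 0.662 for arrays of equal number in the combination and cmB16F1, so equal numbers deviated together in these groups, although the labels state no pairing. The reported tests do not use the numbers, and the block is an alternative. The combination with dexa+IL4 gave 0.224, -0.0672 and 0.116, and dexa+IL4 with cmB16F1 gave 0.236, -0.0234 and 0.167, so equal numbers did not deviate together throughout there. The alternatives were another variance model, 3 other scalings, percentiles, fewer groups, array weights, a low-value filter, a replicate block, the other set of a cluster and leaving out each array.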

Additional observations from a re-analysis of the deposited data

How the results depend on the processing

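Of 19 alternatives, the Ctsb and Ctsd calls against dexa+IL4, the Ctsd call against cmB16F1 and the Ctsb call between single treatments each held in 18. The exception was the within-array percentile, where differences were -0.16 and -0.18 (combination against dexa+IL4, Ctsb and Ctsd), -0.13 (combination against cmB16F1, Ctsd) and 0.15 (Ctsb, dexa+IL4 against cmB16F1) percentile points; Ctsd (0.06) and Ctsk (5.11) lost their calls between single treatments there too. Percentiles by construction leave the top clusters little room. Scaling to the hybridization controls shifted the median cluster by -0.26, -0.20 and 0.06 in the 3 comparisons. It gave Ctsb -0.77, Ctsd -0.87, Ctsk -1.10, Ctsl -0.04 and Ctss -0.34 against dexa+IL4. Against cmB16F1 it gave Ctsb -0.29, Ctsd -0.55, Ctsk -0.08, Ctsl -0.18 and Ctss -0.24. That Ctsb interval ran from -0.52 to -0.06, without a call (limma adjusted p = 0.07832). Between single treatments the scaling gave Ctsb 0.48, Ctsd 0.32, Ctsk 1.02, Ctsl -0.13 and Ctss 0.10. It called 379 clusters higher and 6725 lower in the combination than in dexa+IL4 (1581 and 1603 as deposited, a share of 5.34% against 49.7% higher, and 38.3% with median centring). Against cmB16F1 it called 263 higher (1168 as deposited, a share of 11.7% against 46.4%), and between single treatments 933 higher and 960 lower (2273 and 2181). The Ctsk difference from dexa+IL4, -0.84, passed with only those groups fitted (limma adjusted p = 0.0341) and with a replicate block (0.006502); the block changed no other call of the members. Leaving out 1 array gave Ctsk -1.08 to -0.58 against dexa+IL4, -0.13 to 0.41 against cmB16F1 and 0.72 to 1.25 between single treatments. Against cmB16F1 it gave Ctsl -0.12 to 0.21 and Ctss -0.06 to 0.00. Counts against dexa+IL4 ran from 987 to 1716 higher and 1057 to 1647 lower, lowest without dexa+IL4 replicate 1. The causes were not tested.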
